A study of Mus musculus with 18 samples.

Results

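H3K9me3 was followed at *Snrpn* and the 5 other genes of the mouse Prader-Willi imprinted cluster, *Ube3a*, *Ndn*, *Magel2*, *Mkrn3* and *Peg12*. They are 6 of 35977 genes in the deposited annotation and were taken by name, with their positions from that annotation (GRCm38/mm10). The windows were the transcripts plus 10 kb on each side, and the interval ran from the *Ube3a* window to the *Peg12* window, chr7:59218750-62474510, or 3.256 Mb. H3K9me3 ChIP-seq peak lists came from ES-E14TG2a mouse embryonic stem cells (mESCs) grown in serum and LIF: 2 wild-type, 2 *Uhrf1* KO and 2 *Dhx9* KO libraries. The *Uhrf1* KO cells were CRISPR-Cas9 clones made in mESCs that carry an inducible heterochromatin reporter. Which clone gave which replicate, and how the *Dhx9* KO cells were made, is not given in the sources used here. The study describes its replicates as biological.

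The cluster is a textbook case of genomic imprinting. *Snrpn* encodes a spliceosomal protein, and its main promoter lies in the imprinting centre, which carries DNA methylation and H3K9me3 on the maternal chromosome. *Ndn* (necdin), *Magel2* (a ubiquitin ligase regulator), *Mkrn3* (a ring finger protein) and *Peg12* are expressed from the paternal chromosome, while *Ube3a*, a ubiquitin ligase, is expressed from the maternal chromosome in neurons. Between *Ube3a* and *Snrpn* lie tandem arrays of the snoRNA genes *Snord115* and *Snord116*, which are processed from the long host transcript *Snhg14*. UHRF1 binds hemimethylated DNA and H3K9me3 and brings DNMT1 to replicated DNA, and DHX9 is an RNA helicase. The zinc finger protein ZFP57 binds methylated TGCCGC at imprinting centres and recruits KAP1 and SETDB1. The peak lists do not separate the parental chromosomes.

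The sequences below are those under the peaks that changed and, for contrast, promoters that held none. They are from RefSeq, build GRCm38.p6, written 5′ to 3′. In the promoters and in the *Magel2* and *Snord116* stretches capitals mark CpG dinucleotides, and in the *Snrpn* intron capitals mark TGCCGC or its reverse complement GCGGCA. The main *Snrpn* promoter is chr7:60005150-60005449 on the minus strand, and the distal one, at the farthest upstream *Snrpn* start in the deposited annotation, is chr7:60140176-60140475 on the minus strand. The intron stretch, chr7:60004602-60004901 on the minus strand, held the most CpGs of any 300 bases of the *Snrpn* peak outside exons and began 255 bases downstream of the main start. The *Ube3a* promoter is chr7:59228500-59228799 on the plus strand. The *Magel2* stretch, chr7:62379301-62379500, is the middle of its coding exon's peak, and the *Snord116* stretch, chr7:59751901-59752100, is the middle of the tested region with the largest fall in *Uhrf1* KO cells. Both are on the plus strand.
*Snrpn* main promoter: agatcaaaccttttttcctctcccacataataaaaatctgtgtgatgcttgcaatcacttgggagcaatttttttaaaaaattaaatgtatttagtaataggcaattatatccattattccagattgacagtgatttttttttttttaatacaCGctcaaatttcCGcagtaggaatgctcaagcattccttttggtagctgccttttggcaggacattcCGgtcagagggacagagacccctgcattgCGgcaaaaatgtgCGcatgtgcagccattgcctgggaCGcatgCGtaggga
*Snrpn* first intron: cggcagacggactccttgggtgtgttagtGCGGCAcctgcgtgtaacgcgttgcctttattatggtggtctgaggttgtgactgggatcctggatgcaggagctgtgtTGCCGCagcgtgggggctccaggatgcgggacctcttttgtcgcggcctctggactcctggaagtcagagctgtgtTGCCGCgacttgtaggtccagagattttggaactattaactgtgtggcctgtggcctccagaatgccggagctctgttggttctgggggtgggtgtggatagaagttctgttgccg
*Snrpn* distal promoter: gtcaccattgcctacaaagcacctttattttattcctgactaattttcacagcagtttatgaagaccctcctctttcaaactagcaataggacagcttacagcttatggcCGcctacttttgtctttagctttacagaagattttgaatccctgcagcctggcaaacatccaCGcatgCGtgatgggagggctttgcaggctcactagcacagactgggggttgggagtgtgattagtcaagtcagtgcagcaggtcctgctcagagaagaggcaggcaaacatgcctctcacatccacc
*Ube3a* promoter: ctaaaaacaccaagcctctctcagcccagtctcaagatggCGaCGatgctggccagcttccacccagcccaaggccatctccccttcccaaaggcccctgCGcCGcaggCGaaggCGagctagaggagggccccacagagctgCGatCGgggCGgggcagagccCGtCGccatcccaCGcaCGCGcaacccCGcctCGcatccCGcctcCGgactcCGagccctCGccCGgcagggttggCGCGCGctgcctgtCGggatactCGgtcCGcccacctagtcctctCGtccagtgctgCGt
*Magel2* coding exon: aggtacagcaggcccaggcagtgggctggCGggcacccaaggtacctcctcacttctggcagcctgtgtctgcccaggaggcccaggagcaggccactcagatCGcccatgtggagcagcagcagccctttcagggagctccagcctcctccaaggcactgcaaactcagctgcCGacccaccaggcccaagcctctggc
*Snord116* array: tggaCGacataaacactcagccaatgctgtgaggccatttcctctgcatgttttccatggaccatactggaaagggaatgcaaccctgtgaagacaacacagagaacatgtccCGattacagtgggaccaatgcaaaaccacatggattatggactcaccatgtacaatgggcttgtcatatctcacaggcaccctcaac

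The main *Snrpn* promoter held 7 CpGs in 300 bases, against a median of 7 over 32851 promoters, and the distal promoter held 3. The *Ube3a* promoter held 29, at the 87.1 percentile of all promoters. The hexamer, searched as TGCCGC and GCGGCA, occurred once in the main *Snrpn* promoter and in none of the other *Snrpn* promoters or those of the other 5 genes, while 11.6% of all promoters held it. The whole wild-type *Snrpn* peak of 2600 bp held 67 CpGs and 10 copies of the hexamer. Of 5176 wild-type replicate 1 peaks of the same width, 23.5% held at least 1 copy and 1, the *Snrpn* peak itself, held 10 or more. At least 67 CpGs were found in 2.09% of those peaks, and their median was 27. A match to these letters is a description of the sequence and not a measured binding site.

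The lists held 116156 and 119982 peaks for wild-type, 70195 and 93916 for *Uhrf1* KO and 125453 and 120695 for *Dhx9* KO cells, with 6703081 to 20875020 ChIP reads inside peaks. *Uhrf1* KO replicate 1 had the fewest. Peaks with the same limits carried identical background reads in the wild-type and *Dhx9* KO lists, whereas only 4.29% and 2.27% of the limits that *Uhrf1* KO replicates 1 and 2 shared with wild-type replicate 1 did, with median ratios of 0.607 and 0.60 to wild-type. Genotype and background reads therefore cannot be told apart in any comparison of *Uhrf1* KO with wild-type peak calls. A peak is called on both, and its log2 fold is the ChIP reads over the background reads after scaling for library size. None of the 6 start sites of *Pou5f1*, *Nanog* and *Sox2*, genes active in mESCs, lay in a peak of any library, and the lists do not measure expression of the deleted genes.

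*Snrpn* carried the peak with the most H3K9me3 reads per kb of the 6 genes in wild-type cells, at its main start site, and that peak was in neither *Uhrf1* KO list and in both *Dhx9* KO lists at a lower level. The wild-type peak had the same limits in both replicates, chr7:60002801-60005400. It reached 244 bases upstream of the start at 60005156 and 2355 bases into the gene, over 121 exonic and no coding bases of *Snrpn*, and covered the start shared with *Snurf*. Wild-type replicates 1 and 2 had 263 and 318 ChIP reads there, each over 68 background reads, with log2 folds of 2.11 and 2.44. These placed the peak above 89.7% and 93.7% of the peaks in their lists. *Dhx9* KO replicate 1 had 121 reads over 64 in a peak of 2400 bp, and replicate 2 had 197 reads over 77 in a peak of 3000 bp. Their log2 folds were 0.92 and 1.36, at the 49.4 and 72.7 percentiles of their lists. Both *Dhx9* KO values were below both wild-type values.

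Neither *Uhrf1* KO list had a peak at the *Snrpn* start. *Snrpn* was picked out on these same libraries, so this is a description and was not tested. At the wild-type level, scaled by the library sizes of the count test below, the *Uhrf1* KO replicates would have held 151.3 and 347.2 reads in this region. The fewest ChIP reads in any peak within 200 bp of that width were 28 and 49 in their lists, which were called on other background reads. The other 2 *Snrpn* start sites in the annotation, at 60097608 and 60140219, lay in no peak of any library.

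**Figure D1:**
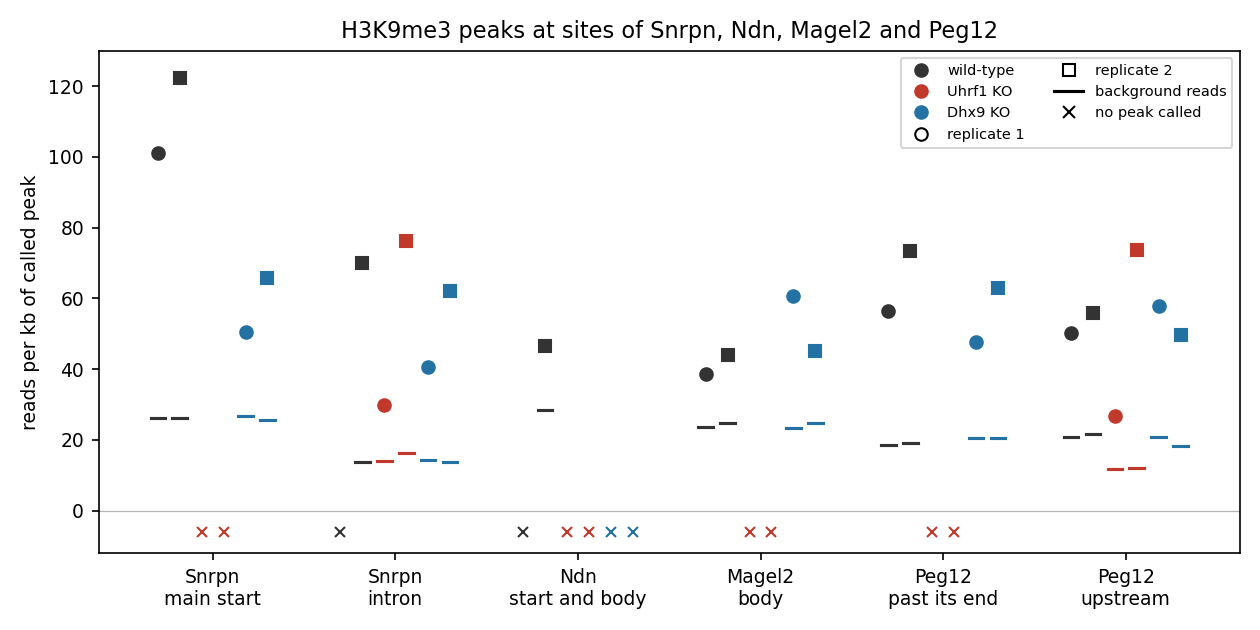
ChIP reads per kb of called peak (vertical axis, not scaled for depth) at 6 sites of *Snrpn*, *Ndn*, *Magel2* and *Peg12*, with 1 point per library (circles replicate 1, squares replicate 2) and short bars for background reads per kb. Crosses below 0 mark libraries with no peak: at the *Snrpn* start, the *Magel2* body and past the end of *Peg12* both *Uhrf1* KO libraries have crosses, while the wild-type libraries hold 101.2 and 122.3 reads per kb at the *Snrpn* start.

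Inside the long *Snrpn* transcripts other peaks were weaker in reads and did not follow that pattern. An intronic peak at chr7:60050201-60051000 in wild-type replicate 2, with 56 reads and a log2 fold of 2.57, overlapped a peak in both *Uhrf1* KO lists, with 30 and 61 reads, and in both *Dhx9* KO lists, with 65 and 112 reads. Wild-type replicate 1 had no peak there. Wild-type replicate 1 instead had peaks at chr7:60012401-60013400, chr7:60094801-60096000 and chr7:60132001-60133800, with 57, 63 and 86 reads, none of which was in wild-type replicate 2. Only the peak at the main start was therefore in both wild-type libraries.

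*Magel2*, a single-exon gene, carried H3K9me3 over its coding sequence and not at its start. Wild-type replicates 1 and 2 had 139 and 132 ChIP reads over 85 and 74 background reads, in peaks at chr7:62377601-62381200 and chr7:62377801-62380800. *Dhx9* KO replicates 1 and 2 had 218 and 135 reads over 84 and 74. Peaks began 422 to 822 bases downstream of the start, and every base of them was coding. The annotated gene *Gm32061* overlaps this region. The log2 folds were 0.87 and 1.05 in wild-type and 1.38 and 0.88 in *Dhx9* KO cells, so these groups overlapped. They stood at the 35.44 and 49.55 percentiles of the wild-type lists and the 80.36 and 38.4 percentiles of the *Dhx9* KO lists. Neither *Uhrf1* KO list had a peak there. At the wild-type level 70.3 and 161.3 reads would have been found, beside 33 and 63 for the smallest peaks of like width and medians of 79 and 121.

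*Peg12*, an intronless gene, had H3K9me3 on either side and none over its transcript or start. Just past its end, 271 to 471 bases from the transcript, wild-type replicates 1 and 2 had 79 and 88 ChIP reads over 26 and 23 background reads, with log2 folds of 1.76 and 2.15. *Dhx9* KO replicates had 105 and 126 reads with log2 folds of 1.22 and 1.63, and neither *Uhrf1* KO list had a peak. At the wild-type level the *Uhrf1* KO replicates would have held 43.4 and 99.7 reads, against 20 and 37 for the smallest peaks of like width. On the upstream side all 6 libraries had H3K9me3 in chr7:62472401-62476600, at the edge of the window. It held 161 and 123 reads in wild-type, 113 and 103 in *Uhrf1* KO and 139 and 664 in *Dhx9* KO cells, where the replicate 2 peak ran on for 13400 bp. The *Uhrf1* KO replicate 2 peak, 1400 bp over 17 background reads with a log2 fold of 2.25, began just outside the 10 kb window and is not in the window counts below. *Dhx9* KO replicate 1 had a further peak 3871 bases past the end, with 79 reads.

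The other genes of the cluster had little or no H3K9me3. *Ndn* had 1 peak, in wild-type replicate 2, over its start and body, with 56 reads over 34 and a log2 fold of 0.94. *Ube3a* had 1 peak in its window, again in wild-type replicate 2, which ended 6950 bases upstream of the gene and held 88 reads over 57. *Mkrn3* had no peak in any of the 6 libraries. Over the 6 windows the lists held 7 and 7 peaks in wild-type, 2 and 1 in *Uhrf1* KO and 7 and 6 in *Dhx9* KO cells.

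When overlapping peaks of the 4 libraries of a comparison were merged into regions, 4 regions in the 6 windows were called in both wild-type libraries. A region absent from both knockout lists counted as lost. In *Uhrf1* KO cells 3 of the 4 were lost (*Snrpn* start, *Magel2* body and *Peg12* end), beside 24.2% of 80160 regions called in both wild-type libraries over the genome. In *Dhx9* KO cells 0 of 4 were lost, beside 6.99% of 78833 regions. No region of the windows was gained, meaning called in both knockout and neither wild-type library, in either knockout, beside 8.52% of 49591 regions in *Uhrf1* KO and 8.74% of 73423 regions in *Dhx9* KO cells. With 4 regions these counts rest on single loci, and without wild-type replicate 1 or 2 the lost regions numbered 5 and 6 in *Uhrf1* KO and 2 and 1 in *Dhx9* KO cells. In *Uhrf1* KO cells they numbered 2 at log2 fold 1, 2 with equal numbers of peaks and 4 with peaks merged within 1 kb. With 2 libraries against 2 there is no exact two-sided permutation p below 0.333. Both comparisons share the wild-type libraries.

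Of 14 start sites of the 6 genes, the main *Snrpn* start was the only 1 in a peak of both wild-type libraries. Over all genes, 8656 of 74770 start sites were in a peak of both wild-type libraries. Of these 8656, 40.7% were in no *Uhrf1* KO peak, so the absence at *Snrpn* was shared with many start sites, while 15.5% were in no *Dhx9* KO peak. Of 16 other genes of the wider region, 14 were in the annotation. *Snurf*, which shares the *Snrpn* start and encodes a small protein upstream of SNRPN, was the only 1 with a start in a peak of both wild-type libraries and the only 1 lost in *Uhrf1* KO cells. None of the 14 was lost in *Dhx9* KO cells or gained in either knockout.

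Besides *Snrpn* and *Snurf*, 807 genes had a start site in a peak of both wild-type and both *Dhx9* KO lists and of neither *Uhrf1* KO list. The 5 most like *Snrpn*, by the summed absolute difference in log2 fold over those 4 libraries, were *Wdr88* (0.68), *Pnpla1* (0.70), *Mest* (0.91), *A230070E04Rik* (0.91) and *Kcnq1ot1* (0.92). The start of *Kcnq1ot1*, an imprinted noncoding RNA on the same chromosome, had log2 folds of 2.08 and 2.06 in wild-type and 1.27 and 1.21 in *Dhx9* KO cells. The starts of *Peg3*, an imprinted zinc finger gene, had 1.92 and 2.09 in wild-type and 1.46 and 1.5 in *Dhx9* KO cells, and no *Uhrf1* KO peak. The start of *Peg10*, an imprinted retrotransposon-derived gene, was in no peak of any library.

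The count test, edgeR's quasi-likelihood test on ChIP reads with Benjamini-Hochberg adjustment over the genome, could be run where all 4 libraries had a peak covering at least 80% of a region. In *Dhx9* KO against wild-type cells 7 interval regions qualified, and 1, the *Snrpn* start, was lower, beside 0.572% of 4721 regions in the genome. Normalized to library size and covered length, this region held 98.2 and 126.1 reads per kb in wild-type and 53.4 and 62.6 in *Dhx9* KO cells. Both knockout values were below both wild-type values. The log2 change was -0.94 with a standard error of 0.18 (adjusted p = 0.020, n = 2 libraries each). *Snrpn* had been picked out with these same wild-type libraries, so this p-value is not independent of that choice. None of the 7 was higher (0.0424% of the genome's regions were), while DESeq2 called 1 lower and 0 higher. Unadjusted p was under 0.05 for 5 of 7, all lower: the *Snrpn* start and the *Snord116* regions given below. The genome's share at that unadjusted p was not counted, so these 5 do not set the interval apart from the genome. The call was lost without wild-type replicate 2 (adjusted p = 0.58, log2 change -0.76), with equal library sizes (0.070, -0.94), without the length offset (0.096, -0.88) and when all regions with a peak in every library were tested (0.16, -0.98), out of a range of 5.5e-08 to 0.58 over 10 alternatives. The number of lower interval regions was 0 without wild-type replicate 2, and 3 and 5 without *Dhx9* KO replicates 1 and 2. The *Dhx9* KO replicate 1 peak covered exactly 80% of the region.

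The other tested regions in *Dhx9* KO cells were 4 in the *Snord116* array, 1 in the *Snord115* array and 1 between *Snrpn* and *Ndn*. The 4 *Snord116* regions had log2 changes of -0.87, -0.71, -0.65 and -0.59, with adjusted p from 0.053 to 0.26. In each of them both *Dhx9* KO values were below both wild-type values, but none passed the threshold. They share an array of near-identical copies, where reads may have been placed at the wrong copy. The largest value on the positive side, 0.11 with a standard error of 0.22 (adjusted p = 0.92), was in the *Snord115* array at chr7:59523401-59524400, where the groups overlapped.

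**Figure D2:**
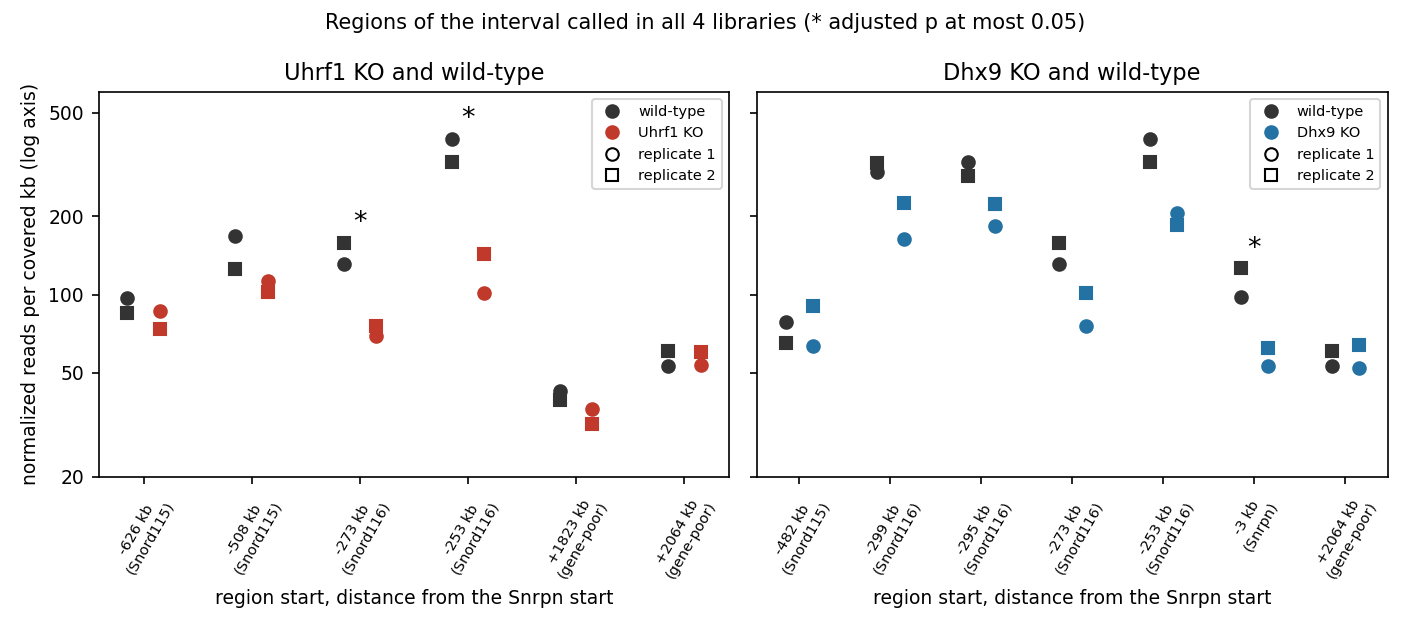
Normalized ChIP reads per covered kb (vertical log axis) for the 6 interval regions tested in *Uhrf1* KO and the 7 tested in *Dhx9* KO cells, placed by distance of their start from the main *Snrpn* start, with 1 point per library. Asterisks mark adjusted p at most 0.05: 2 *Snord116* regions in *Uhrf1* KO and the *Snrpn* start in *Dhx9* KO cells, each with both knockout points below both wild-type points.

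In *Uhrf1* KO cells 6 interval regions qualified, and 2 were lower, both in the *Snord116* array, beside 5.52% of 2535 regions in the genome. None was higher, beside 3.23%. Unadjusted p was under 0.05 for the same number, 2, with the genome's share again not counted. DESeq2 called 2 lower and 0 higher. The region at chr7:59751801-59752200 had 163 and 125 ChIP reads in the wild-type replicates against 21 and 68 after *Uhrf1* loss, or 395.7, 322.1, 101.2 and 142.8 normalized reads per covered kb. Its log2 change was -1.49 with a standard error of 0.23 (adjusted p = 0.0015). The region at chr7:59732201-59733400 held 131.1 and 158.1 normalized reads per kb in wild-type cells, against 69.4 and 75.6 in *Uhrf1* KO cells. Its log2 change was -0.98 with a standard error of 0.20 (adjusted p = 0.0094). At both, the groups did not overlap. Adjusted p ranged from 0.00040 to 1.0 and from 0.0026 to 1.0 over 11 alternatives. Both calls were lost with equal library sizes, at log2 changes of -1.69 and -1.19, and when all regions with a peak in every library were tested, at -1.32 and -0.80, and the second also without wild-type replicate 2 (0.15), which left 1 lower region. The *Snrpn* start could not enter this test, having no *Uhrf1* KO peak.

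The same regions had *Dhx9* KO values of 206.5 and 185.8 normalized reads per kb at the first (log2 change -0.87, adjusted p = 0.053) and 75.9 and 101.0 at the second (-0.71, adjusted p = 0.13). They lay 219 and 370 bases from the nearest snoRNA copy. Both lie in an array of near-identical copies, so reads may have been placed at the wrong copy and these values are uncertain. Their wild-type replicate 1 background, 95 and 40.8 reads per kb, was above the 26.2 per kb over all peaks of that list. By contrast, the region at chr7:62069401-62075600 between *Snrpn* and *Ndn* had 53.2 and 60.5 normalized reads per kb in wild-type cells, against 53.6 and 60.2 in *Uhrf1* KO cells (log2 change 0.01, standard error 0.14, adjusted p = 0.98), the highest estimate of the 6.

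The whole interval was divided by annotation, after the peaks had been seen, into the gene windows, the 2 snoRNA arrays and the gene-poor stretch from *Snrpn* to *Ndn*. RefSeq places 132 *Snord115* copies in chr7:59347173-59619095 and 69 *Snord116* copies in chr7:59673461-59904848. Both arrays held many short H3K9me3 peaks, with a median width of 900 to 1200 bp in wild-type cells. Of the copies themselves, 12 and 11 of 132, and 16 and 10 of 69, lay under peaks in wild-type replicates 1 and 2. Those peaks covered 8.46% and 5.96% of the *Snord115* stretch and 17.8% and 13.3% of the *Snord116* stretch.

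**Figure D3:**
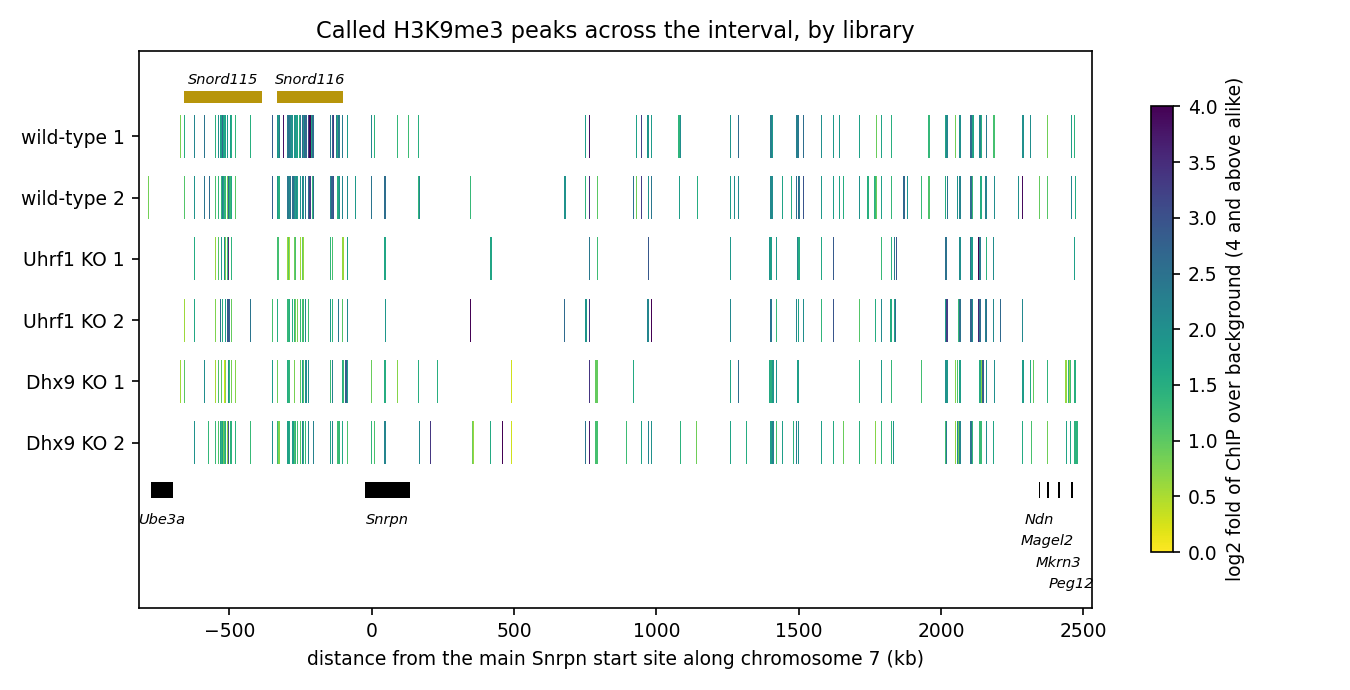
Called H3K9me3 peaks of the 6 libraries (rows) by distance from the main *Snrpn* start (horizontal axis, kb), coloured by log2 fold of ChIP over background and drawn at least 4 kb wide so that they can be seen. The 6 genes are black boxes and the snoRNA arrays gold bars. Peaks are densest over *Snord116* in the wild-type rows, where their median log2 folds are 2.34 and 2.15, and no peak stands at 0 kb in the *Uhrf1* KO rows.

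In the *Snord116* array peaks covered less length, at lower median log2 folds, in both knockouts than in wild-type cells. Peaks covered 41.2 and 30.8 kb in wild-type, 8.0 and 19.8 kb in *Uhrf1* KO and 12.8 and 16.6 kb in *Dhx9* KO cells. Their median log2 folds were 2.34 and 2.15 in wild-type, 0.90 and 1.35 in *Uhrf1* KO and 1.43 and 1.48 in *Dhx9* KO cells. All 4 knockout values of these measures lay below both wild-type values. Reads per covered kb gave another order, with 95.9 and 104.5 in wild-type, 56.8 and 76.4 in *Uhrf1* KO and 106.9 and 123 in *Dhx9* KO cells, so by that measure both *Dhx9* KO values were above both wild-type values. Background reads per covered kb were 21.8 and 27.5 in wild-type, 44 and 23.2 in *Uhrf1* KO and 41.2 and 42.0 in *Dhx9* KO cells. The whole-list median log2 fold did not fall in this way in *Uhrf1* KO cells: it was 1.05 and 1.06 in wild-type, 1.56 and 1.29 in *Uhrf1* KO and 0.93 and 1.01 in *Dhx9* KO cells. The whole-list length under peaks did fall in *Uhrf1* KO cells, so less covered length was not particular to the array there. It was 416.4 and 401.3 Mb in wild-type, 203.5 and 341.8 Mb in *Uhrf1* KO and 409.1 and 398.8 Mb in *Dhx9* KO cells.

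**Figure D4:**
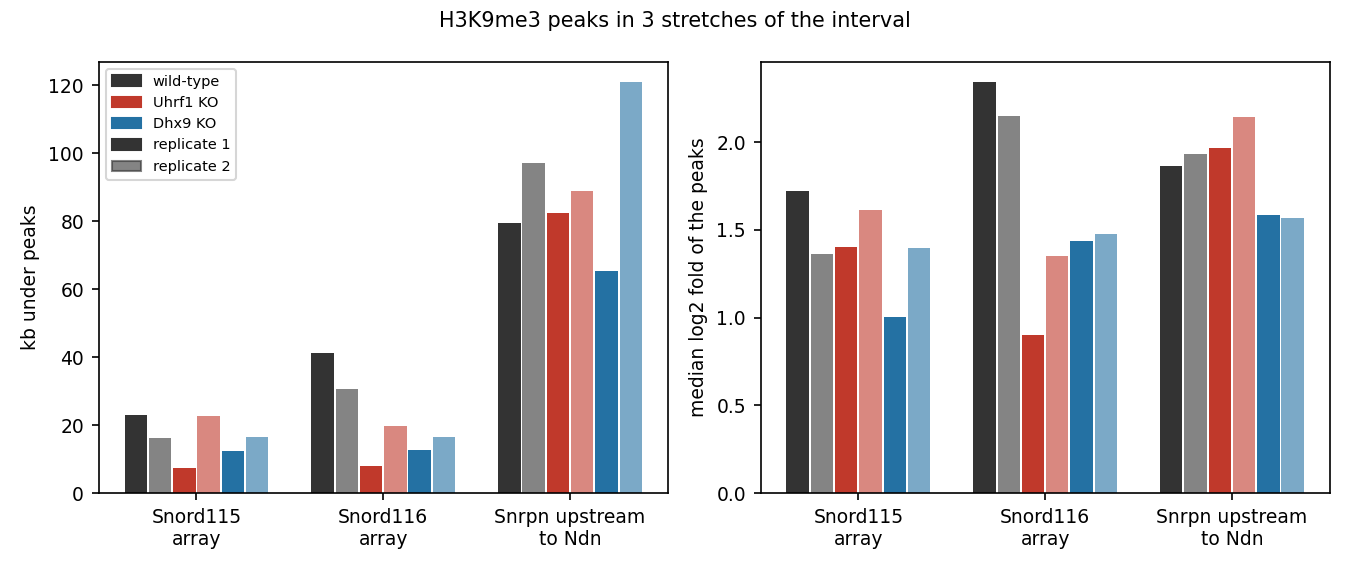
Kilobases under peaks (left, bars from 0) and median log2 fold of the peaks (right) in the *Snord115* array, the *Snord116* array and the stretch from *Snrpn* to *Ndn*, with 1 bar per library (dark replicate 1, light replicate 2). In the *Snord116* array every knockout bar is below both wild-type bars, while in the stretch from *Snrpn* to *Ndn* the genotypes overlap in kilobases.

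Counted as regions, 29 in the *Snord116* array were called in both wild-type libraries, of which 11 were lost in *Uhrf1* KO and 6 in *Dhx9* KO cells, or 37.9% and 20.7% beside 24.2% and 6.99% over the genome. The 11 were 200 to 3600 bp wide with mean wild-type log2 folds of 1.51 to 3.73. Regions lost in *Uhrf1* KO cells over the genome had a median width of 3400 bp. The genome shares, here and for the other stretches, were not matched for width. In the *Snord115* array 3 of 13 were lost in *Uhrf1* KO and 0 of 15 in *Dhx9* KO cells, the first (23.1%) near the genome's 24.2%. There the peaks covered 23.0 and 16.2 kb in wild-type, 7.4 and 22.6 kb in *Uhrf1* KO and 12.4 and 16.4 kb in *Dhx9* KO cells, and the groups overlapped. Soft-masked repeats make up 90.8% of the *Snord115* stretch and 43.1% of the *Snord116* stretch in the reference.

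In the 2188.1 kb from *Snrpn* to *Ndn* the genotypes overlapped in the length under peaks. Peaks covered 79.6 and 97.2 kb in wild-type, 82.4 and 88.8 kb in *Uhrf1* KO and 65.4 and 121.0 kb in *Dhx9* KO cells. Median log2 folds were 1.86 and 1.93 in wild-type, 1.97 and 2.14 in *Uhrf1* KO and 1.59 and 1.57 in *Dhx9* KO cells, so both *Uhrf1* KO values were above and both *Dhx9* KO values below those of wild-type. Of 30 regions called in both wild-type libraries 8 were lost in *Uhrf1* KO cells, and of 31 in the other comparison 6 were lost in *Dhx9* KO cells, or 26.7% and 19.4% beside 24.2% and 6.99% over the genome. All 4 regions gained in *Uhrf1* KO cells were in this stretch, of 21 called in both *Uhrf1* KO libraries, or 19.0% beside 8.52% over the genome.

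The strongest of these gains, at chr7:62134401-62138000, held 30 and 136 ChIP reads over 1 and 9 background reads in *Uhrf1* KO replicates 1 and 2, with log2 folds of 5.45 and 3.57. It is 91.7% soft-masked and overlaps no annotated gene. At chr7:61844601-61847600 the *Uhrf1* KO replicates had 42 and 84 reads (2.93 and 2.59) and at chr7:61840201-61842600 they had 62 and 57 reads (2.32 and 1.68), both overlapping *A230057D06Rik*. Neither wild-type list had a peak at any of these. In *Dhx9* KO cells the 3 gained regions of 2 kb or longer had mean log2 folds of 1.56 at chr7:61425801-61428600, 1.15 at chr7:62442201-62444600 and 0.29 at chr7:60494801-60497800. The first of these overlaps the remaining *Uhrf1* KO gain, chr7:61425801-61428000, which held 54 and 66 reads (1.84 and 1.31).

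Of the lost regions of 2 kb or longer in *Uhrf1* KO cells, the *Snrpn* start had the highest mean wild-type log2 fold, 2.28. It was followed by chr7:59676001-59679600 (1.94), over *Snord116* and the noncoding gene *Ipw*, and by chr7:61645201-61647400 (1.78), which overlaps no gene. The last was also without a peak in *Dhx9* KO cells, where the next were chr7:59793401-59795600 in the *Snord116* array (1.51) and chr7:60933001-60935200 in *Gm30829* (1.30). Over the whole interval 25 of 79 regions were lost in *Uhrf1* KO and 12 of 82 in *Dhx9* KO cells. These were 31.6% and 14.6%, beside 24.2% and 6.99% over the genome. In every alternative setting the interval share stayed above the genome share, but the gap varied. For *Uhrf1* KO it was 43.8% beside 24.9% at an FDR of 1e-10, but 37.5% beside 36.2% at 50% cover. Without *Uhrf1* KO replicate 2 it was 49.4% beside 48%. For *Dhx9* KO it was 26.2% beside 14.5% at 50% cover, but 15.4% beside 15% at log2 fold 1. Gained regions were 4 of 43 and 3 of 51, or 9.30% and 5.88% beside 8.52% and 8.74%. Lost regions numbered 45 without wild-type replicate 1, 39 without replicate 2 and 40 without *Uhrf1* KO replicate 2, and for *Dhx9* KO 29 and 20 without those wild-type replicates and 33 without *Dhx9* KO replicate 2. Gained regions numbered 7 without *Uhrf1* KO replicate 1, and for *Dhx9* KO 6 without wild-type replicate 2 and 15 and 10 without *Dhx9* KO replicates 1 and 2.

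In sequence, the *Snrpn* and *Magel2* regions stood at the top of the 25 regions lost in *Uhrf1* KO cells, with 25.8 and 25 CpGs per kb against a median of 8.75 for the 25 and 9 for the 38 interval regions kept in all 4 libraries. Over the genome the medians were 10.0 for lost and 10.1 for kept regions. The hexamer occurred in 3 of the 25, with 10 copies at *Snrpn*, 4 in *Magel2* and 3 in a region over *Gm31445*, in 8 of the 38 kept and in 2 of the 4 gained. A smaller share of the lost than of the kept regions held it (12% and 21.1%). The kept regions were also wider, and these shares were not scaled to width. It occurred in 0 of the 12 regions lost and 8 of the 44 kept in *Dhx9* KO cells. The interval regions lost in *Uhrf1* KO cells were narrower, with a median width of 1400 bp against 3000 bp for those kept. Over the genome these medians were 3400 and 5200 bp. The part of width in the calls was not tested.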

How the data were processed

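H3K9me3 ChIP-seq libraries of wild-type, *Uhrf1* KO and *Dhx9* KO mESCs (2 each) were analysed, grouped by the sample labels; the other 12 of 18 samples were not analysed here. Per the labels and the study's methods, the authors aligned reads to mm10 with Bowtie2 2.3.4.3, subsampled them with SAMtools and called peaks per library with epic2 (listed as SICER 0.0.51), keeping duplicates. The methods name the wild-type input as background. The *Uhrf1* KO lists carried other background reads than the wild-type lists, and which input gave them is not stated. The deposited lists hold raw counts of reads from the ChIP and from the background in each peak, p-values with false discovery rates, the caller's score (not used), and the log2 fold over background scaled to library size. Positions came from the deposited annotation.

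The members, gene lists and tests were chosen with earlier results of these data known. The regions, genes and likeness rule named were the 6 members, interval regions past a test's threshold or with the largest change in each direction, the lost or gained regions at least 2 kb long with the 3 highest mean log2 folds, and the 5 start sites closest to *Snrpn*. Overlapping peaks were merged, and positions are 1-based. The count test used edgeR 4.0.16 under R 4.3.3, with TMM library sizes, an offset for the length called, filterByExpr and a false discovery rate of 0.05 and, as an alternative, DESeq2 1.42.0. Standard errors are the log2 change over the square root of the quasi-likelihood F. Simulated data for *Uhrf1* KO and *Dhx9* KO held 2535 and 4721 regions. In each, 46 of 50 regions given a log2 change of -1 were called. Changes of -2, 1 and 2 were simulated in the same runs, and the unchanged regions gave 12 and 10 false calls. The counts were drawn with the dispersion estimated in the same fit, so this recovery does not cover spread that the fit missed. Replicates differed by more than counting noise (mean chi-square per region of 5.07 to 16.0, where 1 is expected). Reads outside peaks are unknown. Python 3.11.15 and pysam 0.24.0 were used.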

Additional observations from a re-analysis of the deposited data

How the results depend on the processing

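The *Snrpn* start counted as lost in *Uhrf1* KO and not lost in *Dhx9* KO cells under every alternative of peak threshold, number of peaks, overlap, merging and left-out library run. Except for merging, these settings only take away peaks or libraries, so they could not have added a *Uhrf1* KO peak there. Not lost needs a peak in only 1 *Dhx9* KO library. The *Dhx9* KO replicate 1 peak, with a log2 fold of 0.92 and an FDR of 1.6e-10, missed the thresholds of log2 fold 1 and FDR 1e-10. Over the recomputed values, 132 stayed within 1.5 times, within the replicate spread or on their side of the threshold, 45 moved further, 9 fell short of the threshold and none changed direction. A region without a peak has no count, and *Uhrf1* KO replicate 1 had the fewest reads in peaks.

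With equal library sizes, and with all regions tested, the lower interval regions numbered 0 and 0 in *Uhrf1* KO (2 as reported) and 0 and 0 in *Dhx9* KO cells (1 as reported), where they were also 0 without the length offset and 0 with all 6 libraries, the last because the *Snrpn* start has no *Uhrf1* KO peak. Leaving out each library gave 1 to 2 in *Uhrf1* KO and 0 to 5 in *Dhx9* KO cells. Genome counts moved more: 140 lower and 82 higher regions in *Uhrf1* KO cells became 0 and 0 with equal library sizes and with all regions tested, 82 and 29 with DESeq2, and 42 and 9 of 902 with 6 libraries. In *Dhx9* KO cells 27 lower and 2 higher became 9 and 2 with equal library sizes, 2 and 0 with all regions and 12 and 2 without the offset. Leaving out a library gave 38 to 200 lower and 3 to 158 higher in *Uhrf1* KO, and 7 to 507 and 2 to 235 in *Dhx9* KO cells.

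Replicate numbers are shared by the labels but nothing says that they pair cultures. The replicate differences of wild-type and knockout correlated at 0.065 for *Uhrf1* KO and -0.070 for *Dhx9* KO. With a replicate block 2 interval regions were lower in *Uhrf1* KO and 3 in *Dhx9* KO cells, and over the genome 143 and 65.

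Lost interval regions ranged from 27 to 45 in *Uhrf1* KO and from 17 to 33 in *Dhx9* KO cells when a library was left out, and gained ones from 4 to 7 and from 4 to 15. In the 6 windows lost regions ranged from 3 to 6 and from 0 to 2, and gained ones from 0 to 1 in both. Flanks of 40 kb gave 5 lost regions in *Uhrf1* KO and 1 gained in *Dhx9* KO cells, and asking for 50% cover also gave 1 gained there. Peaks of log2 fold 1 or more, and equal numbers of peaks, each left 1 gained interval region in *Dhx9* KO cells.

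Mean kilobases under peaks in the interval were 164.8 in wild-type (146.9 at an FDR of 1e-10, 153.6 at log2 fold 1) and 122.3 in *Uhrf1* KO cells (98.5 at that FDR). Mean peaks in the 6 windows were 7 in wild-type, and 5, 5.5, 4.5 and 15.5 at that FDR, at log2 fold 1, and with 0 and 40 kb flanks. They were 6.5 in *Dhx9* KO cells, and 4.5, 4.5, 4 and 17.5. In *Uhrf1* KO cells 1.5 became 6 with 40 kb flanks.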
